A study of Mus musculus with 14 samples.

Results

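The 10 genes studied here, all markers of the alveolar type 1 (AT1) cell, the flat cell that lines most of the gas-exchange surface of the lung, were followed through 14 mouse RNA-seq libraries in which the transcription factor gene Nkx2-1 was mutated or not. The genes were Ager, Pdpn, Cav1, Cav2, Emp2, Gprc5a, Clic5, Akap5, Rtkn2 and Igfbp2, taken by name. All 10 were found once in each of the 3 blocks of the expression matrix, among 23793 loci for AT1 cells and for whole lung and 32609 loci for alveolar type 2 (AT2) cells. All 10 passed the filter on low values in both cell types, where at least 3 of the 6 libraries had to reach 1 FPKM (fragments per kilobase of transcript and mapped library size, a level per transcript length).

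As background, an AT1 cell spreads into a sheet so thin that gas crosses it, and its proteins sit largely in and just under an enlarged plasma membrane. Ager (the receptor RAGE), Pdpn (podoplanin), Emp2, Gprc5a and the caveolins are membrane proteins, Clic5, Akap5 and Rtkn2 act beneath the membrane or in the cytoplasm, and Igfbp2 is secreted. Nkx2-1 encodes a homeobox factor of lung and thyroid epithelium that is present in both alveolar cell types. AT2 cells, the neighbours that make surfactant, give rise to AT1 cells when the lung repairs itself.

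Per the labels, AT1 cells sorted by flow cytometry at postnatal day 5 (P5) from an Nkx2-1 and Aqp5 cross gave 3 control and 3 mutant libraries, named A to C in each arm. Whole lobes of the same cross at P14 gave 1 control and 1 mutant library. AT2 cells from an Nkx2-1 and Sftpc cross gave 3 control libraries and 3 mutant libraries, at P8 for letters A and B and at P9 for letter C in each arm. The alleles, the part of Nkx2-1 that was removed, the genotype of the controls, strain, sex and the way AT2 cells were isolated are unknown from the labels. Nothing in the labels says that libraries of a group came from separate animals, so p-values measure only the spread between these libraries, which may be technical.

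Nkx2-1 itself was lower in every mutant library than in any control of its block. In AT1 cells controls A to C were at 262, 281 and 240 FPKM, mutants A to C at 22.8, 55.8 and 68.2 FPKM (log2 change -2.53, limma adjusted p 0.00639). In AT2 cells it went from 247, 289 and 353 to 74.4, 59.0 and 73.4 FPKM (log2 change -2.08, limma adjusted p 8.0e-05), and in whole lung from 101.1 to 52.1 FPKM. Whether reads fall in the deleted part is not known, so these values check the labels and do not measure loss of function. Summed FPKM ranged from 458300 to 983400 and 11102 to 13030 loci reached 1 FPKM per library; FPKM keeps no read depth. Mitochondrially encoded transcripts took 14.0 to 33.7% of the summed FPKM in AT2 controls and 8.85 to 12.8% in AT2 mutants. They were 10 loci in the AT2 block, while no such locus was found in the AT1 and lung blocks. Summed FPKM therefore does not cover the same loci in all blocks. The cell labels were also set against defining markers. Control AT2 libraries held Sftpc, the surfactant protein C gene, at 67280 to 92420 FPKM, and control AT1 libraries held it at 6728 to 15300 FPKM beside Ager at 5425 to 6353 FPKM. Conversely Ager was at 2120 to 2959 FPKM in the control AT2 libraries, so both transcripts were present in both cell populations. The part of AT1 cell RNA in the AT2 values was not tested.

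The levels of the 10 genes in control AT1 cells spanned a wide range. Ager led at 5797 ± 491 FPKM (SD, n = 3), and its lowest library stood above the highest library of any other member. Gprc5a (1404 ± 324 FPKM), Emp2 (1136 ± 370 FPKM), Igfbp2 (733 ± 420 FPKM), Akap5 (448 ± 105 FPKM) and Clic5 (343 ± 128 FPKM) followed. The lowest means belonged to Cav1 (318 ± 61.1 FPKM), Rtkn2 (232 ± 33.7 FPKM), Pdpn (203 ± 65.8 FPKM) and Cav2 (125 ± 40.2 FPKM). Each of these genes overlapped its neighbour in the order over the 3 libraries, so below Ager no neighbouring pair was separated by more than its spread. In control AT2 cells Ager again led (2521 ± 421 FPKM) and Cav2 again came last (36.8 ± 7.55 FPKM). Every member had a higher control mean in AT1 than in AT2 cells, from 2.30-fold for Ager to 7.57-fold for Igfbp2; these levels come from tables normalised separately and are not tested.

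**Figure D1:**
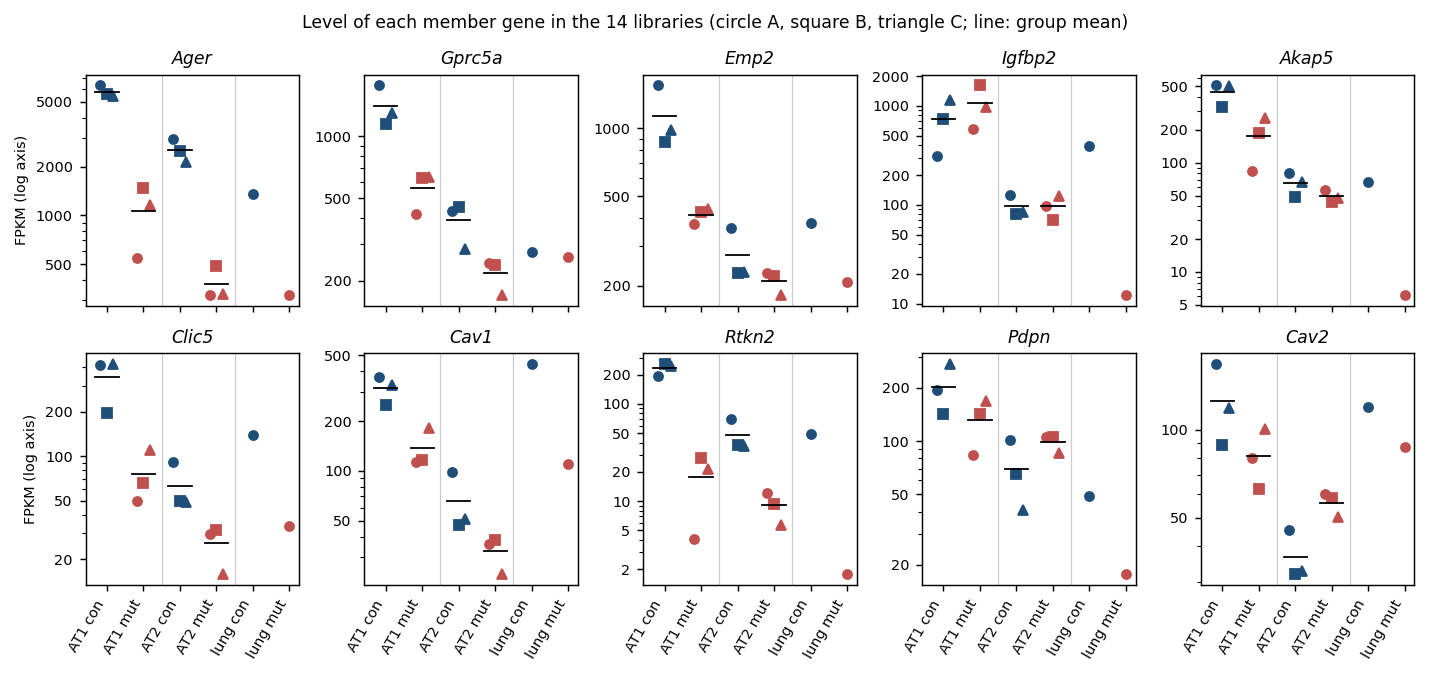
FPKM of each of the 10 genes (log axis, own scale per gene) in the 14 libraries; blue points are controls, red points mutants, circles, squares and triangles are letters A, B and C, lines are means of groups of 3, and con and mut stand for control and mutant. In AT1 cells the mutant points lie below all control points for 7 genes, while Pdpn, Cav2 and Igfbp2 overlap, and in AT2 cells Cav2 lies higher in all 3 mutants.

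The 10 genes lie on 7 mouse chromosomes, given here for GRCm38, the assembly also called mm10, with gene spans from GENCODE M21. Cav2 (chr6:17281185-17289115) and Cav1 (chr6:17306335-17341452) are neighbours on the plus strand of chromosome 6, 17219 bases apart, and an antisense gene, Gm15581, spans both; Gprc5a lies on the same chromosome at chr6:135065651-135084709. Ager (chr17:34597862-34600936) and Clic5 (chr17:44188584-44280172) share chromosome 17, and the other members are Pdpn (chr4:143267431-143299564, minus strand), Emp2 (chr16:10281749-10313968, minus strand), Akap5 (chr12:76324891-76334153), Rtkn2 (chr10:67979570-68059740, with antisense Gm16212) and Igfbp2 (chr1:72824503-72852474). Strand use in counting is not stated, so reads of the antisense genes, which are not analysed here, could add to Cav1, Cav2 and Rtkn2. RefSeq promoters of GRCm38.p6 were matched for 8 members, with 10 start sites in all; Gprc5a and Rtkn2 were not matched. The 250 bases before each start were searched on both strands for the NKX2-1 core CTCAAG, its shorter form TCAAG, which lies inside it, and the TEAD motif GGAATG. The core was present before 1 of the 10 starts (the second start of Igfbp2) against 13.3% of all 32851 promoters, and the shorter form before 5 of the 10 against 35.9%, namely Pdpn, Clic5, both starts of Igfbp2 and the second start of Cav1. GGAATG was before none of the 10, against 12.6% of promoters. The stretches before the first start of 5 members are printed because they set the gene that fell most in level (Ager) and a gene that fell in both cell types (Clic5) beside Pdpn, which passed the test in neither, and beside the neighbouring pair Cav1 and Cav2. Capitals mark a TCAAG match on either strand (CTTGA on the minus strand of the gene).
Ager, chr17:34597600-34597849, plus strand: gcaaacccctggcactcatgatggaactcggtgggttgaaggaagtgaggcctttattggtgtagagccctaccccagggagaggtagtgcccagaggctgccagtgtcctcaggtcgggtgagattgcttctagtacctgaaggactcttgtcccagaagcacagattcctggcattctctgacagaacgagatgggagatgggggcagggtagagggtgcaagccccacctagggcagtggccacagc
Clic5, chr17:44188322-44188571, plus strand: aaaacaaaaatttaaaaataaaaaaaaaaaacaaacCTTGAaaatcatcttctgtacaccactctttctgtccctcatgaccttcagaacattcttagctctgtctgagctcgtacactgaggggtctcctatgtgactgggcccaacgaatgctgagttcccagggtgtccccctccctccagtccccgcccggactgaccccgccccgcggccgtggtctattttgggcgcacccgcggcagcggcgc
Pdpn, chr4:143299565-143299814, minus strand: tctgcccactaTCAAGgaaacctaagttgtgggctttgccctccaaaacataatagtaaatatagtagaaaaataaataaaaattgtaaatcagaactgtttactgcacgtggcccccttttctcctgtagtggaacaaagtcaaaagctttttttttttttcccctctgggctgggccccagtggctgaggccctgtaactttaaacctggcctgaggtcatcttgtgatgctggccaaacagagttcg
Cav1, chr6:17306085-17306334, plus strand: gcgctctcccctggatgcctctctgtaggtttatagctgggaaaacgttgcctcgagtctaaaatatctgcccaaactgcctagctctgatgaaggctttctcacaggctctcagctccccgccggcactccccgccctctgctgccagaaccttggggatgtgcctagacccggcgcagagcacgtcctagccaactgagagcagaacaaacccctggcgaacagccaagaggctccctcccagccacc
Cav2, chr6:17280935-17281184, plus strand: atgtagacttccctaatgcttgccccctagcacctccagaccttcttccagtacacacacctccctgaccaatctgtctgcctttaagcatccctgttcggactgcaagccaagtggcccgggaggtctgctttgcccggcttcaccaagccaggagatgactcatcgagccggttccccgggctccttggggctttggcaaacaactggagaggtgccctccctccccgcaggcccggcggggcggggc
A match lay 214 bases before the start in Clic5 and 239 bases before it in Pdpn, and no match of any of these motifs lay in the windows of Ager, Cav1 and Cav2 shown. These matches are a description of letters in a short window.

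In AT1 cells 7 of the 10 genes fell in the mutant and none rose: Ager, Cav1, Emp2, Gprc5a, Clic5, Akap5 and Rtkn2. Of the 12612 genes tested with limma 17.8% passed; 6.22% were lower and 11.6% higher at an adjusted p under 0.05 (785 and 1462 genes; 656 and 686 with libraries rescaled to equal summed FPKM, called equal totals here, which kept all 7 members). This fit did not pair libraries. With the replicate block, a term that pairs libraries by letter, 1359 genes were lower and 1907 higher, and the 7 members stayed lower. The same 7 genes had no overlap between arms, against 16.5% of all genes with every mutant library below every control. The median log2 change of the members was -1.37, beside 0.00065 over all genes tested. Fewer AT1 cells in a sample and less of a transcript per cell cannot be told apart in these bulk libraries.

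Ager encodes RAGE, an immunoglobulin-type receptor of the AT1 membrane that binds HMGB1 and S100 proteins. The 3 AT1 controls were at 6353, 5612 and 5425 FPKM, and the 3 mutants at 547, 1484 and 1156 FPKM. The highest mutant library was below the lowest control, and mutant A, the library with the least Nkx2-1, was lowest. The log2 change was -2.56 ± 0.37 (SE, limma adjusted p 0.00697). In AT2 cells Ager went from 2959, 2483 and 2120 to 325, 485 and 325 FPKM, again without overlap, with a log2 change of -2.75 ± 0.23 (limma adjusted p 0.000112). The AT2 change minus the AT1 change was -0.18 ± 0.46 on the log2 scale (95% interval -1.18 to 0.82, limma adjusted p 0.835), which leaves the size of any difference loosely bounded; its sign turned to 0.12 without AT1 mutant B and to 0.54 with equal totals. Ligands of the receptor moved both ways. Of 7 RAGE ligand genes tested in AT1 cells 4 were higher and 2 lower, beside 11.6% and 6.22% of all genes. Of 7 tested in AT2 cells 3 were higher and 1 lower, beside 32.2% and 22.5% of all genes. A change either way was thus common in the latter. The AT1 count was 1 higher and 1 lower without mutant A, and 2 higher and 2 lower without control C, without mutant C or with no filter on low values; leaving out 1 library gave 0 to 2 lower in AT2 cells. S100a11 went from 1044 ± 200 to 2877 ± 725 FPKM in AT1 cells and S100a6 from 549 ± 106 to 1208 ± 431 FPKM, the latter call being lost in 6 of 12 alternatives (adjusted p 0.0547 to 0.0936). In AT2 cells S100a6 rose from 154.5 ± 70.1 to 618 ± 92.0 FPKM and S100a11 from 1115 ± 190 to 2425 ± 458 FPKM. S100a9, also a neutrophil gene, fell in both, by 1.16 and 1.43 on the log2 scale. Its AT2 call was lost in 5 of 13 alternatives (adjusted p 0.0643 to 0.138): with no filter on low values, with equal totals set without mitochondrial and small RNA loci, and without control A, mutant A or mutant C.

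Emp2, a tetraspan protein of the epithelial membrane, was at 1559, 869 and 980 FPKM in AT1 controls and 375, 424 and 438 FPKM in AT1 mutants. All 3 mutants stood close together and below the controls, which spread more. This gave a log2 change of -1.42 ± 0.25 (limma adjusted p 0.0116). In AT2 cells the values were 362, 228 and 231 FPKM in controls and 229, 221 and 181 FPKM in mutants. These overlapped, and the log2 change of -0.35 (95% interval -0.83 to 0.13) did not pass (limma adjusted p 0.181); it became 0.23 with equal totals. Among its 3 relatives, Pmp22, a myelin and epithelial tetraspan protein, fell in both cell types (log2 changes -1.63 and -1.11; adjusted p 0.051 in AT2 cells with equal totals). Emp1 rose in both (0.96 and 1.57), its AT1 call being lost in 8 of 12 alternatives (limma adjusted p 0.0509 to 0.141), among them leaving out control B, control C or any 1 mutant.

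Gprc5a, a retinoic-acid-induced orphan receptor of lung epithelium, was at 1768, 1149 and 1295 FPKM in AT1 controls and 418, 628 and 632 FPKM in AT1 mutants. No mutant library reached a control. The log2 change was -1.33 ± 0.25 (limma adjusted p 0.0148), and without mutant A it was -1.13 with an adjusted p of 0.0504. In AT2 cells Gprc5a went from 436, 456 and 285 to 244, 239 and 169 FPKM. Control C stood closest to the mutants there, still without overlap. The limma fit gave a log2 change of -0.84 ± 0.23 (limma adjusted p 0.0169); the call was lost without AT2 control A (0.0563), without AT2 mutant C (0.0615) and under equal totals (log2 change -0.25, adjusted p 0.238). Its family member Gprc5c rose from 5.72 ± 0.169 to 23.1 ± 3.17 FPKM in AT1 cells and from 5.01 ± 0.718 to 19.5 ± 0.616 FPKM in AT2 cells and passed in both. The other relative tested, Gprc5b, did not pass in either cell type (log2 change -0.37 in AT2 cells, limma adjusted p 0.0642), but passed as lower in AT2 cells with median-ratio scaling (-0.49, 0.0219) and without AT2 control C (-0.51, 0.0121).

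Pdpn, a mucin-type glycoprotein of the apical AT1 membrane that binds ezrin-type linkers, passed the test in neither cell type. In AT1 cells it was 195, 142 and 273 FPKM in controls and 83.7, 143 and 169 FPKM in mutants. The arms overlapped, with mutants B and C inside the control range. The log2 change was -0.63 (95% interval -1.36 to 0.10, limma adjusted p 0.193). In AT2 cells the controls A to C were at 102, 65.5 and 40.9 FPKM and the mutants at 106, 105 and 85.8 FPKM. Mutants A and B were above every control and mutant C was inside the control range. On the log2 scale the change was 0.60 (95% interval -0.10 to 1.295, limma adjusted p 0.128). That value passed, as higher, without AT2 control A (log2 change 0.92, adjusted p 0.0147), with age as a term (0.0497) and with the replicate block (0.0492). It also passed with equal totals (1.17, 6.0e-05) and with equal totals set without mitochondrial and small RNA loci (0.89, 0.0165). Ager over Pdpn, a ratio within each library that no scaling of libraries can move, was 32.7, 39.5 and 19.9 in AT1 controls and 6.54, 10.4 and 6.83 in mutants. In AT2 cells it fell from 29.0, 37.9 and 51.9 to 3.06, 4.61 and 3.79. Neither pair of arms overlapped. The exact two-sided permutation p, which did not pair libraries by letter, was 0.1 in each, the smallest that 3 against 3 unpaired libraries allow. Among 6 tested ERM proteins and linkers, the proteins that tie membrane glycoproteins to actin, 2 fell in AT1 cells (2 lower and 2 higher with the replicate block) and 3 fell and 1 rose in AT2 cells. Over all genes 6.22% fell in AT1 cells, and 22.5% fell and 32.2% rose in AT2 cells. Msn (moesin) fell from 516.5 ± 124 to 144 ± 33.5 FPKM in AT1 cells and from 151 ± 35.5 to 63.55 ± 2.98 FPKM in AT2 cells. Ezr (ezrin) rose in AT2 cells from 206 ± 20.9 to 495 ± 55.9 FPKM.

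Cav1 and Cav2, the caveolins that coat the flask-shaped pits of the AT1 and endothelial membrane, are neighbouring genes and were compared as a pair. Cav1 was at 372, 252 and 331 FPKM in AT1 controls and 114, 117 and 181 FPKM in AT1 mutants. The groups did not overlap, and the log2 change was -1.22 ± 0.23 (limma adjusted p 0.0148). The call was lost without mutant A (adjusted p 0.0637) and without mutant B (0.0504). In AT2 cells Cav1 went from 98.6, 46.8 and 51.2 to 35.9, 38.2 and 23.6 FPKM. Control A stood well above the rest, and the log2 change was -0.93 ± 0.30 (limma adjusted p 0.0334). That call did not hold without AT2 control A (0.0542), mutant A (0.0555) or mutant C (0.104), with no filter on low values (0.0842) or under equal totals (log2 change -0.36, 0.195; 0.0927 without mitochondrial and small RNA loci).

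Cav2 in AT1 cells was 168, 88.6 and 119 FPKM in controls and 80.02, 62.9 and 100.2 FPKM in mutants. Mutant C lay inside the control range, and the log2 change of -0.60 (95% interval -1.20 to 0.01) did not pass (limma adjusted p 0.145). In AT2 cells Cav2 was 45.5, 31.9 and 32.9 FPKM in controls and 60.2, 58.2 and 50.1 FPKM in mutants. Every mutant was above every control, and the log2 change was 0.61 ± 0.15 (limma adjusted p 0.0112), the only rise among the members with values as deposited. Of all 10594 genes tested in AT2 cells 32.2% were higher, so a rise was common there. The AT2 change of Cav2 minus its AT1 change was 1.21 ± 0.33 on the log2 scale (limma adjusted p 0.0437).

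Cav1 over Cav2 within a library is a ratio that no scaling of libraries can move. It was 2.21, 2.84 and 2.78 in AT1 controls and 1.42, 1.86 and 1.80 in AT1 mutants. In AT2 cells the ratio was 2.17, 1.47 and 1.56 in controls and 0.596, 0.656 and 0.472 in mutants, so that Cav2 exceeded Cav1 in all 3 mutants. Whole lung went from 3.71 to 1.26. In both cell types the arms did not overlap and the exact two-sided permutation p was 0.1. With the ratios of Ager to Pdpn, Ager to Igfbp2 and Rtkn2 to Pdpn, 8 such tests were made over the cell types. All gave 0.1, also after Benjamini-Hochberg adjustment, and none of these unpaired tests can go lower. The added ratios each set a gene that fell in both cell types over one that passed in neither. Their direction therefore repeats the results of the single genes.

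**Figure D2:**
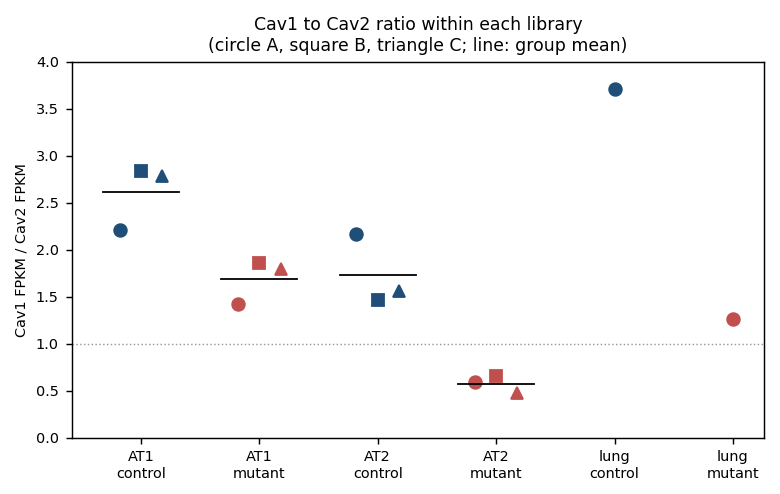
Cav1 FPKM over Cav2 FPKM within each of the 14 libraries (linear axis from 0); blue points are controls, red points mutants, symbols are letters A to C and lines are means of groups of 3, with a dotted line where both genes have the same FPKM. Mutants lie below controls in AT1 cells (means 1.69 and 2.61), in AT2 cells (0.575 and 1.73) and in the single pair of lungs.

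Other proteins of the caveola were counted in each cell type, without a test of the list between them. Of 10 caveola partner genes tested in AT1 cells 2 fell and none rose, beside 6.22% of all genes that fell; the replicate block gave 4 lower and 1 higher, and leaving out 1 library gave 1 to 3 lower. The genes that fell were Ehd2, an ATPase at the caveolar neck (254 ± 47.8 to 132 ± 30.8 FPKM), and Flot1, a flotillin of membrane rafts (69.8 ± 4.06 to 32.1 ± 5.22 FPKM). The call of Ehd2 was lost without control C, mutant A or mutant B (adjusted p 0.0697 to 0.0875). In AT2 cells 4 of 9 rose and 2 fell, where 32.2% and 22.5% of all genes did, with a median log2 change of 0.18 beside 0.09 over all genes. Cavin1, the cavin needed for caveola formation, went from 110.1 ± 12 to 270.4 ± 19.9 FPKM and Cavin2 from 40.5 ± 14.9 to 76.3 ± 16.1 FPKM, a call lost in 3 of 13 alternatives (adjusted p 0.0509 to 0.0576). Ror1 fell there from 8.68 ± 1.17 to 2.43 ± 0.204 FPKM. Caveolins are also endothelial genes. The summed level of 14 endothelial markers was 509.5 to 973.2 FPKM in AT1 controls and 284 to 348 FPKM in AT1 mutants, with 3 of 13 tested markers lower (6 with the replicate block, 8 without control A, and 1 without mutant A or without mutant B). In AT2 libraries the sum over 13 markers was 222 to 299 FPKM in controls and 65.9 to 102 FPKM in mutants. There 13 of 13 were lower, Cav1 fell and Cav2 rose. No endothelial marker was at 0 in any library, and the part of endothelial RNA in the Cav1 and Cav2 values was not tested.

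Clic5, a chloride intracellular channel protein found with ezrin-type linkers at the cell cortex, was at 412, 195 and 422 FPKM in AT1 controls and 49.7, 66.1 and 111 FPKM in AT1 mutants. The highest mutant was still below the lowest control. The log2 change was -2.17 ± 0.37 (limma adjusted p 0.0112; 0.0508 without mutant A, where it was -1.91). In AT2 cells Clic5 went from 90.8, 49.7 and 48.9 to 29.7, 31.6 and 15.8 FPKM, a log2 change of -1.26 ± 0.32 (limma adjusted p 0.0130) with no overlap and mutant C lowest. Of 4 CLIC relatives tested in AT1 cells Clic3 fell (390.0 ± 69.3 to 148 ± 25.9 FPKM) and Clic1 rose (95.4 ± 20.8 to 259 ± 79.3 FPKM), with 2 higher under the replicate block. In AT2 cells Clic3 fell by 1.04 on the log2 scale and Clic4 rose (33.5 ± 1.91 to 58.7 ± 3.14 FPKM). Shares of all genes that fell and rose were 6.22% and 11.6% in the AT1 fit, against 22.5% and 32.2% in the AT2 fit.

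Akap5 anchors protein kinase A (PKA) and calcineurin beneath the membrane. Its level was 513, 326 and 503 FPKM in AT1 controls and 83.9, 185 and 254 FPKM in AT1 mutants. The groups did not overlap and mutant A was lowest. The change in log2 was -1.47 ± 0.39 (limma adjusted p 0.0392). This call had the highest adjusted p of the 7 and was lost with no filter on low values (adjusted p 0.0795) and without control A (0.0736), control C (0.0951), mutant A (0.0787; log2 change -1.01) or mutant B (0.0761). In AT2 cells Akap5 was at 79.6, 48.7 and 66.5 FPKM in controls and 56.6, 43.3 and 47.6 FPKM in mutants. The arms overlapped, and the log2 change of -0.37 (95% interval -0.81 to 0.07) did not pass (limma adjusted p 0.128). It passed without control B (-0.56, 0.0151) and with the replicate block (0.0289), and with equal totals it was 0.20. Of 12 PKA genes tested in AT1 cells, where 6.22% of all genes fell and 11.6% rose, 3 fell and none rose. Among them the anchoring genes Akap2 and Akap12 fell by 1.65 and 0.98 on the log2 scale, the call of Akap12 being lost without mutant A or mutant B (adjusted p 0.0565 and 0.0520). Leaving out control B gave 5 lower. In AT2 cells 2 of 11 fell, Akap2 (log2 change -1.05) and Akap12 (-0.97), and 3 rose, among them Prkar2b, a PKA regulatory subunit (0.66). Over all genes 22.5% fell and 32.2% rose there. With equal totals the AT2 change of Akap2 was -0.49 with an adjusted p of 0.077.

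Rtkn2, a scaffold protein of the rhotekin family, had the largest fall of the 10 genes in AT1 cells. Controls A to C were at 194, 258 and 243 FPKM and mutants A to C at 4.10, 28.0 and 21.4 FPKM. Mutant A held 1.77% of the control mean and mutants B and C 12.1% and 9.22%. The log2 change was -3.96 ± 0.57 (limma adjusted p 0.00685). In AT2 cells Rtkn2 went from 70.3, 37.6 and 36.9 to 12.1, 9.36 and 5.62 FPKM (log2 change -2.29 ± 0.32, limma adjusted p 0.000913), without overlap. The AT2 change minus the AT1 change was 1.67 (95% interval 0.03 to 3.31), which did not pass over all genes (limma adjusted p 0.181).

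Igfbp2, a secreted binder of insulin-like growth factors (IGFs) that marks mature AT1 cells in the mouse, had the widest spread relative to its mean among AT1 controls (CV 57.3%). AT1 controls A to C were at 314, 732 and 1154 FPKM and mutants at 585, 1624 and 981 FPKM. Values of the arms were interleaved, and the highest control was 3.68-fold the lowest. The log2 change of 0.60 (95% interval -0.60 to 1.80) did not pass (limma adjusted p 0.441). In AT2 cells controls were at 125, 81.3 and 84.4 FPKM and mutants at 97.8, 70.7 and 123 FPKM. The change there was near 0, at -0.0031 on the log2 scale (95% interval -0.56 to 0.55, limma adjusted p 0.992); equal totals made it 0.58 (adjusted p 0.0352). Beside it Ager over Igfbp2 fell from 20.2, 7.67 and 4.70 to 0.936, 0.914 and 1.18 in AT1 cells and from 23.7, 30.5 and 25.1 to 3.32, 6.86 and 2.65 in AT2 cells. Of 9 other IGF genes tested in AT1 cells, where 11.6% of all genes rose and 6.22% fell, 1 rose and none fell. That gene, Igf2r, the clearance receptor for IGF2, went from 36.5 ± 3.57 to 76.3 ± 10.4 FPKM there and from 23.8 ± 3.89 to 55.2 ± 8.42 FPKM in AT2 cells. In AT2 cells, where 22.5% of all genes fell and 32.2% rose, 2 of 7 fell and 2 rose. Igfbp6 fell there from 43.9 ± 14.1 to 1.94 ± 0.187 FPKM.

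Across the AT2 cells 5 of the 10 genes fell (Ager, Cav1, Gprc5a, Clic5 and Rtkn2), 1 rose (Cav2) and 4 did not pass (Pdpn, Akap5, Emp2 and Igfbp2). Over all 10594 genes 54.7% passed, 22.5% as lower, so 5 of 10 stands against a high background. Without overlap between arms were the same 5 genes as lower, against 26.5% of all genes, and Cav2 as higher, against 38.0%. The median log2 change of the members was -0.61, beside 0.09 over all genes. Fewer AT1 cells in an AT2 sample and less of a transcript per AT2 cell cannot be told apart here. All genes split into 3415 higher and 2382 lower, 5763 and 852 with equal totals, and 2708 and 2987 with median-ratio scaling. Equal totals moved the median of all genes to 0.60, and the members' median became -0.03 with 3 genes lower and 3 higher. The lists moved likewise with equal totals, to 7 higher and 1 lower for caveola partners, 7 and 1 for PKA genes, 5 and 1 for IGF genes, 4 and 2 for RAGE ligands and 3 and 1 for ERM genes in AT2 cells. The change differed between cell types, by limma's test of the difference, for 1 of the 10 genes, Cav2, against 8.29% of the 10336 genes tested (4.02% with a higher value in AT2 cells, as for Cav2, and 4.28% with a lower one). That is 857 genes, 1345 with the replicate block, and 3701 with equal totals, where 7 members passed. Emp2 came next, with an AT2 change minus AT1 change of 1.06 ± 0.33 and an adjusted p of 0.0671, which passed without AT1 control B (0.0406) or without AT2 control A (0.0386). Pdpn followed at 1.22 (95% interval 0.17 to 2.28, limma adjusted p 0.131) and Akap5 at 1.09 (95% interval 0.03 to 2.15, 0.177). For all these differences cell type, age, cross and processing differ together and cannot be told apart.

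**Figure D3:**
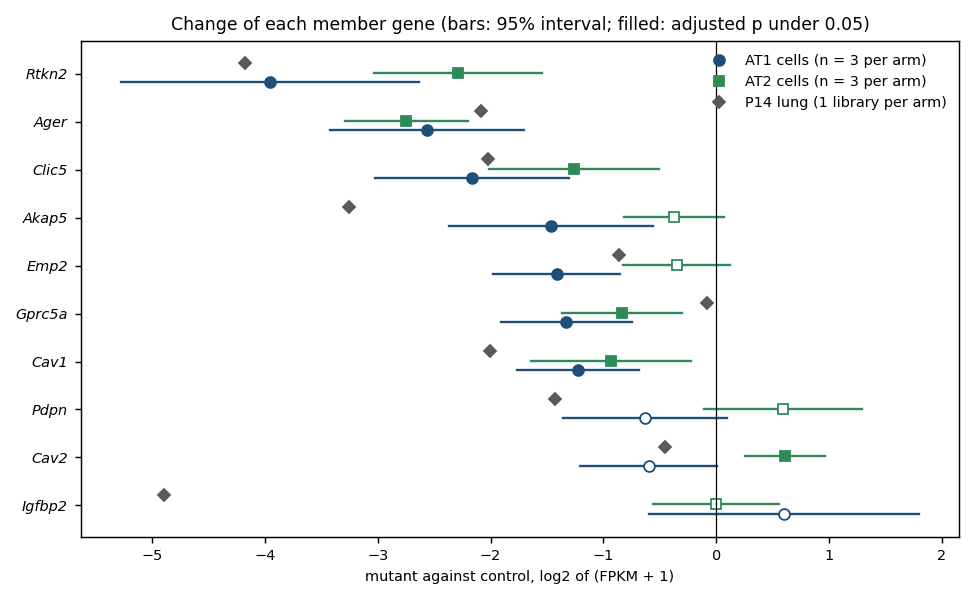
Log2 change of each of the 10 genes, mutant against control, on the FPKM + 1 scale: blue circles are AT1 cells and green squares AT2 cells (3 libraries per arm, bars are 95% intervals from limma, filled symbols have an adjusted p under 0.05), grey diamonds are the single pair of P14 lungs. Genes are in order of their AT1 change, from -3.96 for Rtkn2 to 0.60 for Igfbp2, and Igfbp2 in lung lies at -4.89.

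Mutant libraries were not alike. AT1 mutant A was the lowest of its group in 9 of the 10 genes, Cav2 being lowest in mutant B, and it also held the least Nkx2-1 (8.74% of the control mean, against 21.4 and 26.1% in mutants B and C). Mutant B was the highest of its group in 3 genes and mutant C in 7. A relation of the members to the level of Nkx2-1 was not tested. Without mutant A, 3 of the 10 genes remained past the threshold in AT1 cells (Ager, Emp2 and Rtkn2, with limma adjusted p of 0.0107, 0.0498 and 0.00299), and the count over all genes went from 2247 to 473. In AT2 cells control A was the highest of its group in 9 of the 10 genes, and mutant C the lowest in 7. Leaving out control A left 3 genes lower and 2 higher; leaving out mutant C left 3 lower and 1 higher.

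**Figure D4:**
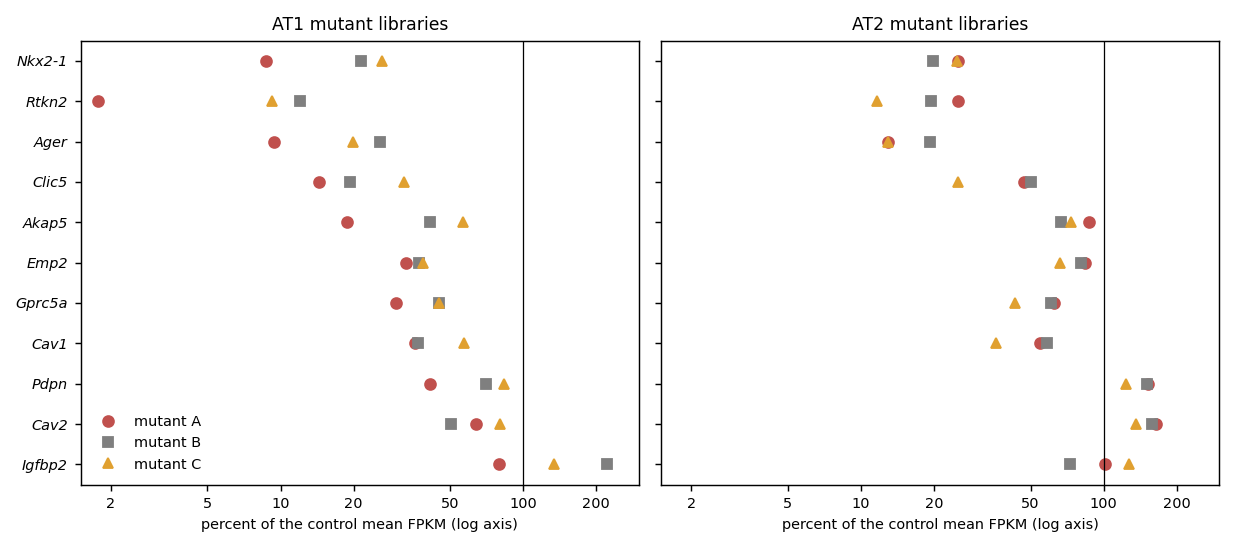
FPKM of Nkx2-1 and of the 10 genes in each mutant library as a percentage of the control mean of the same cell type (log axis), AT1 cells on the left and AT2 cells on the right; the line marks the control mean. In AT1 cells mutant A lies furthest left for Nkx2-1 (8.74%) and for 9 of the 10 genes, down to 1.77% for Rtkn2.

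Whole lung at P14, with 1 library per arm and therefore no test, gave an order that differed from that in sorted AT1 cells. Igfbp2 went from 388.8 to 12.1 FPKM, a 32-fold lower value that was number 16 from the lowest among 10549 genes compared. Rtkn2 went from 49.2 to 1.77 FPKM (27.8-fold), Akap5 from 66.6 to 6.10 FPKM (10.9-fold), Ager from 1362 to 321 FPKM (4.24-fold) and Clic5 from 139 to 33.4 FPKM (4.16-fold). Igfbp2 thus had the lowest ratio of the members in P14 lung, while its values were interleaved in P5 AT1 cells. Cav1 went from 444.5 to 109.9 FPKM (4.04-fold) and Pdpn from 49.2 to 17.7 FPKM (2.79-fold). The smaller ratios were those of Emp2 (380.6 to 209.0 FPKM), Cav2 (119.9 to 87.3 FPKM) and Gprc5a (275 to 259 FPKM), the last turning from a log2 ratio of -0.08 to 0.11 with equal totals. In all, 7 of the 10 were at least 2-fold lower, against 11.3% of the genes compared, those that reached 5 FPKM in at least 1 of both lungs. Markers of several cell types differed between these libraries too: summed FPKM went from 2716 to 935.6 for endothelium (11 of 13 genes at least 2-fold lower, none at 0), from 24270 to 8097 for AT2 cells (7 of 10 lower), from 4438 to 1750 for mesenchyme (4 of 9 lower) and from 308.1 to 3336 for mesothelium (2 of 4 higher, 2 lower). Leukocyte markers went from 221 to 328 FPKM (4 of 9 higher, 1 lower) and airway markers from 21730 to 20900 FPKM (1 of 4 lower). Other AT1 cell genes summed to 3232 and 3521 FPKM, with 19 of 30 at least 2-fold lower and 4 higher. Their part in the lung ratios was not tested, and age, tissue and preparation differ together from the sorted cells, so these cannot be told apart.

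Other genes of the AT1 cell gave a setting for the 10. Of 31 tested in AT1 cells 21 fell and none rose, beside 6.22% and 11.6% of all genes, with a median log2 change of -1.50. The largest falls were those of Sec14l3 (-3.19), Gramd2 (-2.78) and Col4a3, a basement membrane collagen chain (-2.69). Their summed level was 8476 to 12270 FPKM in controls and 4905 to 5360 FPKM in mutants. In AT2 cells 12 of 25 fell and 5 rose, beside 22.5% and 32.2% of all genes. Their median of -0.27 turned to 0.30 under equal totals, where 8 fell and 9 rose. The largest falls there were Matn4 (-3.27), Sec14l3 (-3.02) and Scnn1g, an epithelial sodium channel subunit (-2.21). The 5 that rose, named after their values were seen, were Anxa3, Krt7, Ndnf, Agrn and Lmo7, with log2 changes of 1.17, 1.16, 0.98, 0.56 and 0.52; the call of Lmo7 was lost in 7 of 13 alternatives (adjusted p 0.0584 to 0.148). AT2 cell genes beside these fell in AT2 cells, 10 of 10, from a sum of 86290 to 115500 FPKM in controls to 3055 to 4914 FPKM in mutants. In AT1 cells none of the 10 passed, while the replicate block gave 5 of 10 lower and leaving out control B gave 2. By letter, their sum went from 12330 to 3209 FPKM (A), from 7944 to 5223 FPKM (B) and from 18090 to 11460 FPKM (C), lower in the mutant of all 3 pairs; the part of AT2 cell RNA in the AT1 values was not tested.

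Markers of other cell types were counted in the sorted cells as well. Mesothelial markers summed to 515 to 1774 FPKM in AT1 controls and 2747 to 4514 FPKM in AT1 mutants, with none at 0. Among 6 tested, Krt19, Msln and Upk1b were higher, where 11.6% of all genes rose and 6.22% fell. Upk3b (29.3 ± 5.21 to 31.0 ± 7.77 FPKM), Lrrn4 (3.31 to 2.71 FPKM) and Wt1 (1.52 to 0.994 FPKM) did not pass. Most of the sum was Krt19 (386 to 1635 FPKM) and Msln (585 to 1741 FPKM). Krt19 is also an epithelial keratin, and the call of Msln was lost in 8 of 12 alternatives (adjusted p 0.0502 to 0.159). Leukocyte markers summed to 180.3 to 516 FPKM and 108.5 to 209 FPKM (1 of 9 lower; 4 with the replicate block, 6 without control A), mesenchymal markers to 1776 to 2503 FPKM and 1219 to 1753 FPKM (1 of 9 lower) and airway markers to 882 to 4626 FPKM and 129 to 1176 FPKM (none of 4 called, 3 lower with the replicate block, Krt5 at 0 in control B). In AT2 cells 7 of 8 leukocyte and 5 of 6 mesenchymal markers were lower, where 22.5% of all genes fell and 32.2% rose. The remaining mesenchymal marker, Dcn, was higher, going from 1.14 to 3.41 FPKM (log2 change 1.04, limma adjusted p 0.000599). Leukocyte sums were 49.0 to 157 FPKM in these controls against 13.6 to 29.1 FPKM in mutants. Mesenchymal sums were 88.1 to 170.5 FPKM against 42.35 to 58.4 FPKM. Mesothelial markers there summed to 107 to 129 FPKM in controls and 650.2 to 692 FPKM in mutants, with 2 of 2 tested higher. Nearly all of that sum was the keratin Krt19 (119.5 ± 12.1 to 664.6 ± 20.6 FPKM), while Upk3b went from 0.246 ± 0.186 to 2.65 ± 0.801 FPKM. Their part in the members' values was not tested.

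How alike the members were was described over the 12 cell-type libraries, each value centred on the control mean of its cell type, by Pearson's r with the mean of the 10. Clic5 (0.961), Akap5 (0.951) and Rtkn2 (0.937) followed that mean most closely, and Cav2 (0.534) and Igfbp2 (-0.19) least. Each member is itself part of that mean, which raises its r, so members and other genes are not on equal terms. Among 9137 other genes the 5 nearest were Trp53bp2 (0.969), Sema3a (0.966), Cttnbp2nl (0.966), Zfp365 (0.964) and Unc13d (0.962). In AT1 cells all 5 fell, by 1.23, 2.26, 1.69, 2.13 and 1.14 on the log2 scale, and in AT2 cells Sema3a and Unc13d passed as lower (-1.14 and -0.56). The 5 were chosen for likeness to a mean that fell in AT1 mutants, so their AT1 falls are no separate result. These r values share libraries and the contrast between arms and are given without a test.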

How the data were processed

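Per the labels' protocols, poly(A) RNA was read from both ends, 76 nucleotides each. The submitters' processing notes name mm10, Bowtie2 2.2.3, TopHat2 2.0.14 and Cufflinks 2.2.1, plus Cuffdiff (AT1, lung) or Cuffnorm (AT2). Neither strandedness nor an annotation is given there. The values used are FPKM as the authors deposited them, in 14 library columns, with AT1 and lung values in one table and AT2 values in another. Spreadsheet dates had replaced 26 and 23 gene names, and 1441 unnamed AT2 loci were left out of tests.

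From these, log2(FPKM + 1) was computed and genes at 1 FPKM or more in at least 3 libraries were tested per cell type with limma 3.58.1 in R 4.3.3 (mean-dependent prior variance, two-sided, Benjamini-Hochberg over all genes tested, threshold 0.05). The difference of both cell types' changes was tested over 12 libraries as an interaction. Fold changes on this scale understate those of low genes. FPKM holds no counts, so neither counting intervals nor detection limits were computed. Tables were handled with Python 3.11.15 and pandas 2.3.3. The fits were tested on simulated data.

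The members and lists were chosen with earlier results of these data known. All 10 members are named; of each list, up to 3 called genes with the largest change per cell type, Nkx2-1, and the 5 genes most like the members' mean. A gene that this rule names and 1 list are not reported here. The 16 lists hold other AT1 genes, 6 sets of other cell types' markers and 9 pathways or families. Same-letter AT1 controls and mutants deviated together (r of 0.237, 0.357 and 0.477 across genes), so letters were taken to pair AT1 libraries; in AT2 cells r was 0.12, -0.13 and 0.12 and letters were not. The main fits had no term for letters, which only the replicate block added. Alternatives were another pseudocount (0.1), no filter, equal summed FPKM, median-ratio scaling, a replicate block, age as a term and leaving out each library. Equal summed FPKM without mitochondrial and small RNA loci was chosen after seeing the data.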

Additional observations from a re-analysis of the deposited data

Results flagged for a closer look

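The Cav2 change differed between cell types: lower by a log2 change of -0.60 in AT1 cells, where it did not pass, and higher by 0.61 in AT2 cells, with a tested difference of 1.21 ± 0.33 (limma interaction, adjusted p 0.0437). The difference is the reason for listing it. Its call was lost with no filter on low values (adjusted p 0.0718) and in 9 of the 12 fits that left out a library: in AT1 cells mutant B (0.0837), mutant A (0.0767), control C (0.0693) or control A (0.0559), and in AT2 cells control B (0.104), control C (0.0804), mutant A (0.104), mutant B (0.0888) or mutant C (0.0736). The difference itself stayed between 0.98 and 1.92 in every alternative run, and AT2 mutants were above controls in 3 of 3 libraries.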

How the results depend on the processing

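The replicate block, which pairs libraries by letter, left the AT1 count at 7 lower and gave no other AT1 member a call. With it the AT1 genes called went from 2247 to 3266 and the interaction count over all genes from 857 to 1345. In AT2 cells, where letters were not taken to pair libraries, the block gave 6 lower and 2 higher. Under equal totals AT1 genes called were 1342; AT2 members were 3 lower and 3 higher; 7 members and 3701 genes passed the difference between cell types. Signs turned under equal totals for Emp2 (0.23), Akap5 (0.20) and Igfbp2 (0.58) in AT2 cells, for the cell-type difference of Ager (0.54) and Igfbp2 (0.11), and for Gprc5a in lung (0.11). Equal totals without mitochondrial and small RNA loci gave 2 AT2 members higher and Igfbp2 at 0.29; age as a term gave 2 higher; no filter left 0 members with a cell-type difference. Leaving out 1 library gave 473 to 1990 AT1 genes, 3 to 7 AT1 members lower, 3 to 6 AT2 members lower and 1 to 2 higher, 0 to 2 members and 407 to 1038 genes with a cell-type difference, Igfbp2 in AT2 cells from -0.19 to 0.21 and the Ager difference from -0.60 to 0.12. Of the 450 single-member alternatives, 397 kept direction and call, 28 lost the call, 15 gained it and 10 turned sign. Lung alternatives carry no test, and results without a call in the main fit had none to lose. The 28 losses thus all come from the smaller part that had a call and are not a share of 450. The cause of these changes was not tested. Low depth cannot be judged from FPKM, and whole lung has no replicate.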
